A study of Papio anubis with 588 samples.

Results

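Complement and coagulation are a pair of protease cascades of the blood plasma. The genes described here are 46 named complement and coagulation factors, taken by symbol from the count table that the authors kept after quality control. Of these, 43 had a row, 19 of the 21 complement genes and 24 of the 25 coagulation genes, out of 34178 genes in all. The listed genes C2, CFB and PLG were not analysed here.

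Most factors of both cascades are secreted by hepatocytes and circulate as inactive precursors. In complement, C1 (with its proteases C1R and C1S) or the lectin MBL2 (with MASP1 and MASP2) starts a chain of cleavages that meets at C3, and C5 to C9 then build the membrane attack complex. The receptors C3AR1 and C5AR1, on myeloid cells, bind the small fragments released on the way. In coagulation, tissue factor (F3) with factor VII starts a chain that ends when thrombin (from F2) turns the 3 chains of fibrinogen into fibrin. Antithrombin (SERPINC1), protein C with protein S, thrombomodulin (THBD) and TFPI restrain the chain, and the plasminogen activators PLAT and PLAU start the removal of fibrin.

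RNA of 3 tissues, sampled by biopsy in liver, muscle and fat, was sequenced in 99 captive baboons (Papio anubis). Each animal was sampled at 0 years, while fed a low cholesterol and low fat (LCLF) diet, and again at 2 years, after feeding on one high in both (HCHF). No other treatment, genotype or age is given in the labels. Both libraries of a tissue were present for 84 animals (liver), 95 (muscle) and 95 (adipose tissue). Every HCHF library was taken 2 years later in the animal's life, and animals kept on LCLF were not analysed here, so diet, age and calendar time cannot be told apart.

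Libraries held 6.51 to 38.46 M counts, with a median of 19.5 M. By the labels, 16 animals were sequenced with an unstranded kit and 83 with a stranded kit, without saying which. Each animal as a whole was assigned from the counts to batch 1 (16 animals) or batch 2 (83 animals). In muscle and adipose libraries of batch 1, each hepatocyte marker stood at a small share of its liver level. That share was 0.059% to 0.0843% in muscle and 0.0898% to 0.678% in adipose tissue, against 0% to 0.00506% and 0% to 0.263% in batch 2. By marker genes, 6 liver libraries (5 animals), 3 muscle libraries (2 animals) and 7 adipose libraries (7 animals) stood apart from their tissue. Hepatocyte markers took 2.58% of the counts in 1 of these muscle libraries, and only 2.81% in 1 of these liver libraries. The adipose libraries set apart for hepatocyte markers held them at 0.267% (HCHF) and 0.192% (LCLF) of counts. In scaled counts (CPM), the highest marker sums in adipose tissue were 2837 on HCHF and 1904 on LCLF. The highest values of the single marker TF were 2828 and 1896. These adipose libraries were thus set apart by TF, and not by hepatocyte markers as a set. The tissues otherwise held their own markers, with medians in the 2 batches of 19.7% and 18.1% of counts for hepatocyte markers in liver, 18.2% and 18.9% for myocyte markers in muscle, and 1.09% and 1.06% for adipocyte markers in adipose tissue. In bulk tissue, fewer cells of a type and less RNA per cell cannot be told apart.

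The first comparison asked which tissue held most transcript of each factor on the LCLF diet, in the 92 animals with all 3 tissues. Liver had the highest median level for 15 of 19 complement members and 19 of 24 coagulation members. Adipose tissue had the highest for the other 4 and 5, and muscle for none of the 43. Levels here are CPM, the counts scaled to a common library total. The complement members together took a median of 2.77% of liver counts (range 1.98% to 4.22%), 0.619% of adipose counts (0.22% to 1.38%) and 0.0095% of muscle counts (0.0051% to 0.0684%). The coagulation members took 4.35% (2.51% to 8.99%), 0.0772% (0.0431% to 0.12%) and 0.00506% (0.00256% to 0.0767%). For both sets the liver range lay above the ranges of the other tissues, and the adipose range of complement lay above its muscle range.

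**Figure D1:**
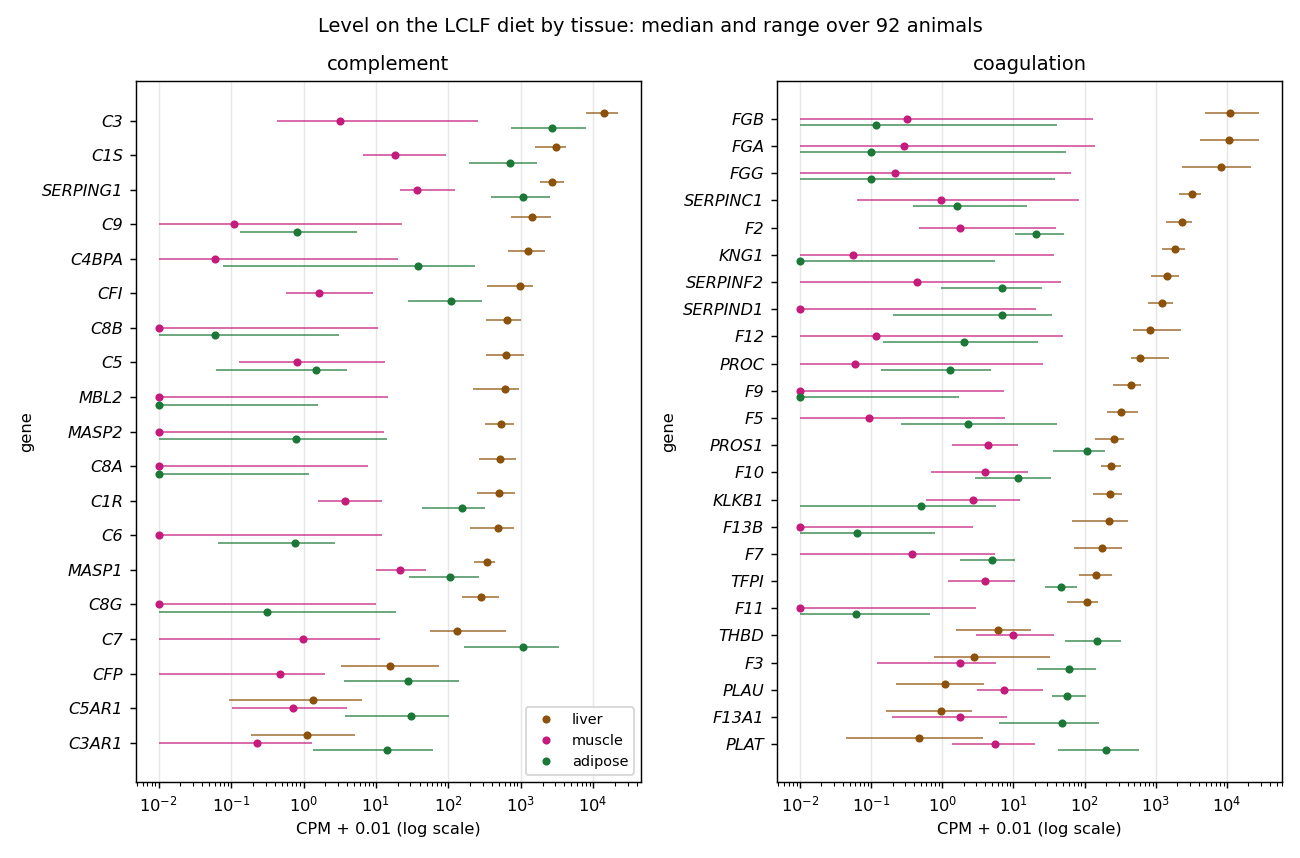
Level of each complement and coagulation member on the LCLF diet in liver, muscle and adipose tissue (CPM plus 0.01, log axis), with points at the median and lines from the lowest to the highest of 92 animals. C3AR1, C5AR1, CFP, C7, F3, F13A1, THBD, PLAT and PLAU have their highest median in adipose tissue, and the fibrinogen chains lie at medians of 8174 to 10852 CPM in liver and below 1 CPM elsewhere.

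In tests of these levels, 19 of 19 complement members were higher in liver than in muscle, where 47% of 17135 genes were higher and 45.8% lower (edgeR, adjusted p under 0.05). Against adipose tissue, 16 were higher in liver and 3 lower, with 43.1% and 48.3% of all genes. Of the coagulation members, 20 were higher and 4 lower in liver than in muscle, and 19 were higher and 5 lower than in adipose tissue. Between adipose tissue and muscle, 15 complement members were higher in adipose tissue and 4 in muscle, with 53.3% and 40.2% of all genes, and for coagulation 14 and 7. Scaling by total counts in place of TMM moved the median of all genes by -1.31 on the log2 scale for liver against adipose tissue and by 1.46 for adipose tissue against muscle. CFP changed direction with that scaling, at 0.45 ± 0.11 (SE) for liver minus adipose tissue with TMM and -0.87 with total counts, and in batch 2 alone it did not pass (0.29, limma-voom adjusted p = 0.157). With total counts the number of complement members lower in adipose tissue than in muscle went from 4 to 0. Among coagulation members, KNG1 then did not pass (-0.50, edgeR adjusted p = 0.14) and SERPINC1 changed direction (0.65), while KLKB1 stayed lower in adipose tissue (-2.04). Several members called higher in muscle lie at the floor, with medians of 0 CPM in both tissues for C8A, MBL2 and F9.

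Within each set, the 3 members with the largest excess of liver over the next tissue were C8B, MBL2 and C8A for complement and the fibrinogen chains for coagulation. C8B, the beta subunit of C8, had a median of 654 CPM in liver (331 to 999), 0 in muscle (0 to 10.8, with 57 of 92 libraries at 0 counts) and 0.0494 in adipose tissue (0 to 3.04, 43 at 0). C8A, the alpha subunit, had 515 CPM in liver (262 to 865) and medians of 0 in muscle (highest 7.68) and adipose tissue (highest 1.18). MBL2, mannose-binding lectin, had 604 CPM in liver (222 to 953) and medians of 0 in muscle (highest 14.7) and adipose tissue (highest 1.6). No range of these 3 genes in liver overlapped that of another tissue. A count of 0 in a library allows up to 3 counts, and counting error is all that this limit covers.

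FGB, the beta chain of fibrinogen, had a median of 10852 CPM in liver (4983 to 27877), 0.309 in muscle (0 to 133) and 0.108 in adipose tissue (0 to 40.7). FGA, the alpha chain, had 10788 CPM in liver (4116 to 28574), 0.283 in muscle and 0.0884 in adipose tissue. FGG, the gamma chain, had 8174 CPM in liver (2336 to 21713), 0.206 and 0.0902. The liver libraries lay far above all others for each chain. In muscle, the libraries of batch 2 held the chains at a median of 0.00153% to 0.00181% of the liver level and those of batch 1 at 0.0646% to 0.0737%, which is also where the hepatocyte markers lie in each batch. Of the complement members, 8 in muscle and 8 in adipose tissue stood at or below the highest hepatocyte marker in batch 2, and of the coagulation members 9 and 11. In adipose tissue that marker was TF, at 0.263% of its liver level, and the next was APOA1 at 0.12%. The members C5, C6, F12, KLKB1 and PROC lay between them.

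Another set of secreted factors was present in adipose tissue at a sizeable share of the liver level. In batch 2 the adipose median was 39.5% of the liver level for SERPING1, the inhibitor of C1, 30.9% for C1R, 24.7% for C1S and 18.7% for C3. MASP1, a protease of the lectin pathway, stood at 30.9% and CFI, which cleaves C3b, at 11%. Among coagulation members, PROS1 (protein S) stood at 42% and TFPI, the inhibitor of tissue factor, at 32.5%. These shares lie far above the hepatocyte markers of the same libraries, whose median was 0.00281%. The share in muscle was at most 6.52% for these 8 genes, that of MASP1. All these shares use total counts, and TMM scaling gives smaller ones in adipose tissue. With TMM, liver exceeded adipose tissue by 2.54 (PROS1) to 4.43 (CFI) on the log2 scale for these genes. For PROS1 that difference was 1.22 with total counts.

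C7, which joins the membrane attack complex after C6, had its highest median in adipose tissue. That median was 1084 CPM in adipose tissue (165 to 3345), 133 in liver (56.2 to 631) and 0.965 in muscle (0 to 11.5). The adipose and liver ranges overlapped, and the difference of liver minus adipose tissue was -1.65 ± 0.13 on the log2 scale (edgeR adjusted p = 5.62e-26). C5AR1, the C5a receptor, had 30.1 CPM in adipose tissue (3.74 to 103), 1.35 in liver (0.0848 to 6.36) and 0.695 in muscle (0.0924 to 3.93). C3AR1, the C3a receptor, had 14 CPM in adipose tissue (1.35 to 61.1), 1.09 in liver (0.176 to 5.16) and 0.215 in muscle (0 to 1.3). CFP (properdin), which steadies the alternative convertase and comes from leukocytes, had 27.7 CPM in adipose tissue (3.61 to 141), 15.5 in liver (3.31 to 73.8) and 0.456 in muscle (0 to 1.99). For CFP the adipose and liver ranges overlapped over most of their length.

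The 5 coagulation members with their highest median in adipose tissue were PLAT, THBD, F3, PLAU and F13A1. PLAT, tissue plasminogen activator, had 199 CPM in adipose tissue (41.7 to 587), 5.42 in muscle (1.36 to 20) and 0.457 in liver (0.0349 to 3.67), and its adipose range overlapped neither of the others. THBD, the endothelial receptor of thrombin, had 148 CPM in adipose tissue (53 to 319), 9.81 in muscle (2.95 to 36.5) and 6.14 in liver (1.53 to 17.9). F3, tissue factor, had 61.2 CPM in adipose tissue (21.5 to 146), 2.75 in liver (0.745 to 32.4) and 1.78 in muscle (0.112 to 5.62). PLAU, urokinase, had 57.2 CPM in adipose tissue (35 to 105), 7.41 in muscle (3.1 to 25.8) and 1.08 in liver (0.211 to 3.88). F13A1, the catalytic subunit of factor XIII, had 48.3 CPM in adipose tissue (6.18 to 159), 1.78 in muscle (0.185 to 8.2) and 0.949 in liver (0.154 to 2.57). Of these, THBD, PLAT, PLAU and F13A1 were also higher in muscle than in liver (differences of liver minus muscle from -3.50 for PLAT to -0.78 for THBD), and F3 was higher in liver than in muscle by 0.53 ± 0.10. For THBD the muscle level was 90.3% of the liver level in batch 1 and 172% in batch 2, and in the 2-year libraries the difference of liver minus muscle was -0.16 and did not pass (edgeR adjusted p = 0.0716).

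The next comparison asked how the factors differed within animals between HCHF and LCLF. In liver, 4 of 19 complement members rose and 6 fell, and 4 of 24 coagulation members rose and 9 fell (edgeR with the animal as block, adjusted p under 0.05). Over all 14919 genes tested, 22.3% rose and 27.1% fell, 49.4% in all. The median change was -0.05 on the log2 scale for complement and -0.10 for coagulation, against -0.03 for all genes. The members that rose were the myeloid receptors, properdin, C7, the plasminogen activators, THBD and F13A1, all of which have their highest median in adipose tissue. The members that fell all have their highest median in liver, and none fell by more than 0.28.

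C5AR1 had the largest rise of any member, from a median of 1.39 CPM (0.0952 to 6.43) to 3.74 CPM (0.802 to 14.3), where CPM in the diet comparisons are TMM-scaled within a tissue. The 2 diets overlapped, but C5AR1 was higher on HCHF in 78 of 84 animals (log2 change 1.51 ± 0.12, SE, edgeR adjusted p = 8.93e-20). C3AR1 went from 1.07 CPM (0.187 to 5.05) to 3.17 CPM (0.753 to 9.26), a change of 1.39 ± 0.11 with 77 animals higher (edgeR adjusted p = 6.47e-19). CFP went from 15 CPM (3.84 to 78.5) to 41.1 CPM (9.76 to 128), a change of 1.30 ± 0.10 with 78 animals higher (edgeR adjusted p = 8.75e-21). These 3 genes thus each rose in 77 or 78 of the 84 animals. Whether CFP moved with the receptors within animals was not tested. C7 went from 136 CPM (62.5 to 616) to 182 CPM (99.4 to 764), a change of 0.57 ± 0.07 with 68 animals higher (edgeR adjusted p = 3.66e-10).

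Macrophage markers moved alongside, with 6 of 7 higher and a median change of 1.23. Their summed level had a median of 704 CPM on LCLF (247 to 1263) and 788 on HCHF (349 to 1575). Most of that sum was CD14, at medians of 645 and 635 CPM with no call (-0.07 ± 0.04), while the other 6 rose by 1.12 to 1.61 on the log2 scale. All 5 neutrophil markers, 7 of 7 endothelial and 8 of 8 fibroblast and stellate markers were higher as well. The summed neutrophil markers had a median of 4.05 CPM on LCLF (0.862 to 29.2) and 11.2 on HCHF (2.81 to 65.6), the endothelial ones 85.4 (38.3 to 192) and 144 (72.6 to 240), and the fibroblast and stellate ones 308 (100 to 1309) and 412 (180 to 1935). Higher too were 5 of 5 markers of T and NK cells (summed median 15.3 CPM, 4.29 to 53.5, and 24.1 CPM, 11.3 to 61.1) and 4 of 4 of smooth muscle (53.4 CPM, 15.5 to 481, and 93.4 CPM, 17.5 to 811). Both erythroid markers that were tested rose, with sums of 36.9 CPM (4.13 to 374) and 83 CPM (5.83 to 1665). The part of these cells in the changes of the members was not tested.

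The complement members that fell in liver were all recognition molecules, lectin pathway proteases or parts of the membrane attack complex. MBL2 fell by 0.26 ± 0.05, from a median of 625 to 516 CPM, and was lower in 65 of 84 animals. MASP2, the protease that cleaves C4 after lectin binding, fell by 0.19 ± 0.03 and was lower in 72 animals, the most of any member. The subunits C8A (-0.16 ± 0.05), C8B (-0.14 ± 0.05) and C8G (-0.13 ± 0.04) and C6, another part of the complex (-0.14 ± 0.05), fell by like amounts. Without the 5 animals that stand apart, C8B (-0.09) and C6 (-0.10) did not pass, with edgeR adjusted p = 0.092 and 0.0782.

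The 9 other complement members did not pass in liver. C3 had a median of 14797 CPM on LCLF (7819 to 24725) and 15368 on HCHF (1125 to 23538), with the diets overlapping and 45 of 84 animals lower (-0.05 ± 0.06, edgeR adjusted p = 0.52). The liver library with few hepatocyte transcripts held the lowest HCHF value of 18 of the 43 members, and without the 5 animals the HCHF range of C3 began at 6604 CPM. C9, the pore-forming last component, had 1510 CPM (683 to 2726) and 1408 (420 to 2441), at -0.05 ± 0.05. The remaining members C1R, C1S, C5, CFI, C4BPA, MASP1 and SERPING1 lay between -0.10 and 0.01.

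Among coagulation members in liver, PLAU went from 1.15 CPM (0.219 to 3.45) to 2.58 CPM (0.63 to 10), a change of 1.14 ± 0.11 with 71 of 84 animals higher (edgeR adjusted p = 2.23e-14). PLAT went from 0.508 CPM (0.0392 to 3.58) to 1.02 CPM (0.048 to 26.3), a change of 0.93 ± 0.16 with 60 animals higher (edgeR adjusted p = 8.31e-07). Both plasminogen activators therefore rose from low liver levels, with wide overlap between the diets. THBD went from 6.52 CPM (1.75 to 17.5) to 8.33 CPM (4.16 to 22.1), a change of 0.39 ± 0.06 with 62 animals higher (edgeR adjusted p = 3.78e-08). F13A1 went from 0.986 CPM (0.148 to 2.55) to 1.26 CPM (0.33 to 10.4), a change of 0.36 ± 0.10 with 55 animals higher (edgeR adjusted p = 0.00212).

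The members that fell in liver were clotting proteases, their inhibitors and a fibrinogen chain. F7 (factor VII, the partner of tissue factor) fell by 0.28 ± 0.04 and was lower in 63 of 84 animals. Factors of the contact and intrinsic route, F11 (-0.24 ± 0.06), F9 (-0.19 ± 0.04) and F12 (-0.18 ± 0.04), fell in 64, 65 and 62 animals, and F10 of the common route in 57 (-0.10 ± 0.03). The anticoagulants PROS1 (-0.19 ± 0.04), PROC, which is protein C (-0.16 ± 0.04), and SERPINC1 (-0.10 ± 0.04) fell as well. FGB had 11784 CPM on LCLF (4131 to 28387) and 10577 on HCHF (2039 to 46815), with 46 animals lower and a change of -0.17 ± 0.07 (edgeR adjusted p = 0.0455). The other chains FGA (-0.13 ± 0.08) and FGG (-0.14 ± 0.09) had like values and did not pass.

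Without the 5 animals that stand apart, SERPINC1 (-0.06) and FGB (-0.14) did not pass either, with edgeR adjusted p = 0.218 and 0.127, and 4 complement and 7 coagulation members were lower. F3 did not pass, at 2.85 CPM on LCLF (0.743 to 32.3) and 2.75 on HCHF (1.12 to 12.3), a change of 0.01 ± 0.09. F2, F5, F13B, KLKB1, KNG1, SERPIND1, SERPINF2 and TFPI lay between -0.11 and 0.00. Hepatocyte markers moved the same way as the secreted factors, with 6 of 10 lower and 0 higher and a median change of -0.15. Their summed level was 194125 CPM on LCLF (116197 to 265176) and 173521 on HCHF (22334 to 237505), and their part in the members' falls was not tested.

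**Figure D2:**
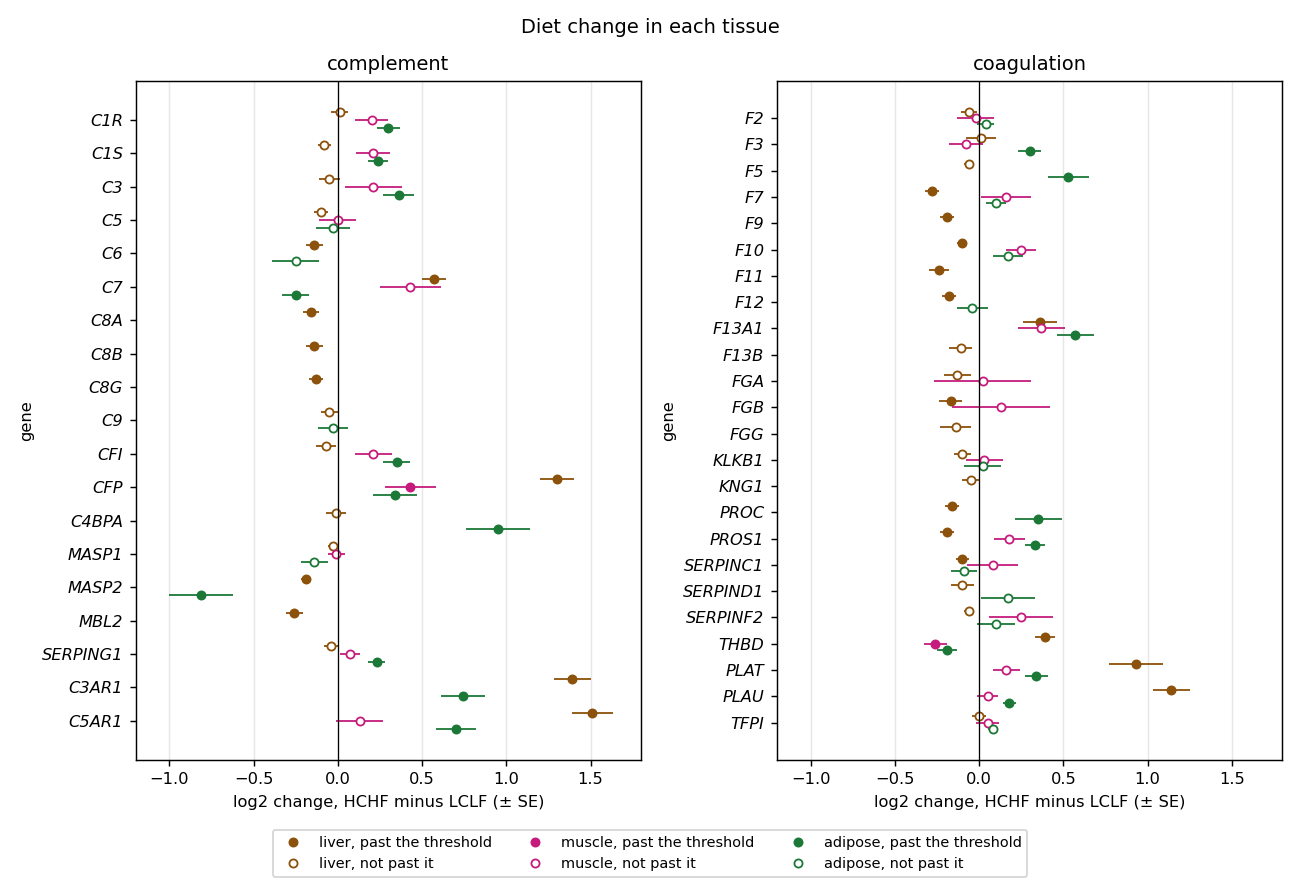
Change of each member from LCLF to HCHF in each tissue (log2 scale, edgeR with the animal as block, bars ± SE, 84 animals for liver and 95 for muscle and adipose tissue), with filled points past an adjusted p of 0.05 and no point where a member was too low to test. The large rises in liver are C5AR1, C3AR1, CFP, PLAU and PLAT, and C7, THBD, PROC and PROS1 have filled points on both sides of 0.

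In muscle, 10 of the 19 complement members and 15 of the 24 coagulation members passed the filter on low counts. Of these, 1 complement member rose and 1 coagulation member fell, where 7% of 13621 genes rose and 7.52% fell, 14.5% in all. CFP rose by 0.43 ± 0.15, from a median of 0.499 CPM (0 to 1.69) to 0.65 CPM (0 to 13.1), in 55 of 95 animals (edgeR adjusted p = 0.0401). Without the 2 animals whose muscle held hepatocyte transcripts CFP was at 0.36 and did not pass (edgeR adjusted p = 0.068). THBD went from 10.1 CPM (3.21 to 32.8) to 8.49 CPM (2.15 to 24) and was lower in 57 animals, a change of -0.26 ± 0.07 (edgeR adjusted p = 0.0129). Endothelial markers were lower too in muscle, 5 of 7 with a median change of -0.21 and a summed level of 177 CPM on LCLF (63.1 to 394) and 161 on HCHF (62.9 to 382). Their part in the fall of THBD was not tested.

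C3 in muscle had a median of 3.47 CPM on LCLF (0.447 to 199) and 3.78 on HCHF (0.301 to 2395), with a change of 0.21 ± 0.17 that did not pass. F3 was at 1.84 CPM (0.125 to 5.05) and 1.79 CPM (0.0862 to 5.14), a change of -0.08 ± 0.10. FGB was at 0.293 CPM (0 to 102) and 0.301 CPM (0 to 1023), at 0.13 ± 0.29, and C9 was too low to test, at 0.1 (0 to 17.5) and 0.112 CPM (0 to 209). The long upper ends of C3, FGB and C9 on HCHF lie in muscle libraries that held hepatocyte transcripts at up to 22324 CPM, against a median of 6.87. C1R, C1S, C7, F10, F13A1 and PROS1 had an unadjusted edgeR p under 0.05 in muscle, with values of 0.18 to 0.43, and did not pass after adjustment. When the animal block was left out, 7 complement and 9 coagulation members were called higher in muscle.

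In adipose tissue, 15 complement members were tested, of which 9 rose and 2 fell. Of 17 coagulation members tested, 7 rose and 1 fell. Over all 16827 genes 19.6% rose and 18.7% fell, 38.4% in all, and the median change was 0.24 for complement and 0.17 for coagulation against a value near 0 for all genes. The risers among complement members were the C1 proteases and their inhibitor, C3, its regulators CFI and C4BPA, properdin and both anaphylatoxin receptors. The members C8A, C8B, C8G, MBL2, F9, F11, F13B, FGA, FGB, FGG and KNG1 were too low to test.

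C4BPA, the alpha chain of the C4b-binding protein, had the largest rise in adipose tissue and also the widest spread. It went from a median of 38.6 CPM (0.0714 to 247) to 58.5 CPM (3.15 to 741) and was higher in 66 of 95 animals (0.95 ± 0.19, edgeR adjusted p = 3.28e-05). C3AR1 went from 14.1 CPM (1.33 to 60.9) to 25.8 CPM (3.47 to 69.1), a change of 0.74 ± 0.13 with 70 animals higher (edgeR adjusted p = 4.64e-06). C5AR1 went from 28.9 CPM (4 to 103) to 48.1 CPM (9.55 to 131), a change of 0.70 ± 0.12 with 73 animals higher (edgeR adjusted p = 2.1e-06). The diets overlapped for all 3.

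C3 in adipose tissue went from 2516 CPM (776 to 7871) to 3012 CPM (1262 to 9473), a change of 0.36 ± 0.09 with 60 of 95 animals higher (edgeR adjusted p = 0.00139). CFI (0.35 ± 0.08), C1R (0.30 ± 0.07), C1S (0.24 ± 0.06) and SERPING1 (0.23 ± 0.05) rose by like amounts in 58 to 67 animals. CFP at 0.34 ± 0.13 passed narrowly (edgeR adjusted p = 0.0348), and without the 7 animals that stand apart it was at 0.32 with an edgeR adjusted p = 0.0508. CFP did not pass with limma-voom either (0.25, adjusted p = 0.108), nor with limma-voom on unfiltered counts (0.24, adjusted p = 0.125) or in batch 2 alone (0.28, adjusted p = 0.0852), nor in edgeR without the animal block (0.15, adjusted p = 0.45). C7 fell by 0.25 ± 0.08, from 1087 CPM (172 to 3110) to 889 CPM (267 to 2873), and was lower in 65 animals (edgeR adjusted p = 0.0118). C5, C6, C9 and MASP1 did not pass, with C9 at 0.823 CPM (0.122 to 5.87) and 0.821 CPM (0.188 to 15.5).

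MASP2 was called lower in adipose tissue, but its batches differ. Its median went from 0.614 to 0.169 CPM in batch 2 and from 9.77 to 10 CPM in batch 1, and the change was -1.26 in batch 2 and 0.10 in batch 1 by limma-voom (both batches by edgeR -0.81 ± 0.19, adjusted p = 0.000279). Over both batches the range was 0 to 13.7 CPM on LCLF and 0 to 13.9 on HCHF, with 62 of 95 animals lower. MASP2 overlaps TARDBP in the RefSeq annotation. Batch 1, assigned from the counts, is taken to be the animals sequenced with the kit that does not mark strand. If so, reads of MASP2 and TARDBP cannot be told apart there. CFP overlaps ZNF41, SERPIND1 overlaps PI4KA, and MASP1, FGA and PLAU overlap a gene each. C7 overlaps an snRNA and a pseudogene, F13A1 a pair of pseudogenes and F5 a lncRNA. The counts of all these members are uncertain as well.

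Among coagulation members in adipose tissue, F13A1 went from 47.7 CPM (6.1 to 159) to 74.1 CPM (14.7 to 232), a change of 0.57 ± 0.11 with 69 of 95 animals higher (edgeR adjusted p = 1.48e-05). F5, the cofactor of activated factor X, went from 2.23 CPM (0.257 to 40.2) to 2.91 CPM (0.778 to 47.6), a change of 0.53 ± 0.12 with 63 animals higher (edgeR adjusted p = 0.000341). PROC went from 1.23 CPM (0 to 4.77) to 1.43 CPM (0 to 14.8), a change of 0.35 ± 0.14 with 60 animals higher (edgeR adjusted p = 0.0331). Without the 7 animals PROC was at 0.31 and did not pass (edgeR adjusted p = 0.0603), nor did it in batch 2 alone (0.26, limma-voom adjusted p = 0.179). PLAT went from 188 CPM (45.5 to 575) to 239 CPM (79.9 to 496), a change of 0.34 ± 0.07 with 66 animals higher (edgeR adjusted p = 7.19e-05).

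Further risers in adipose tissue were PROS1 (0.33 ± 0.06, in 68 of 95 animals), F3 and PLAU (0.18 ± 0.04, in 63). F3 went from 61.2 CPM (21.6 to 135) to 70 CPM (13.8 to 212), a change of 0.30 ± 0.07 (edgeR adjusted p = 0.00022). THBD fell by 0.19 ± 0.06, from 145 CPM (63 to 299) to 129 CPM (63.7 to 291), and was lower in 60 animals (edgeR adjusted p = 0.0133). F2, F7, F10, F12, KLKB1, SERPINC1, SERPIND1, SERPINF2 and TFPI did not pass, with values between -0.09 and 0.17. FGB, too low to test, was at 0.115 CPM (0 to 39.6) and 0.0982 CPM (0 to 208).

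Several marker lists moved with these changes in adipose tissue. Macrophage markers were higher for 6 of 7 (summed level 347 CPM on LCLF, 48 to 921, and 504 on HCHF, 127 to 1180) and neutrophil markers for 5 of 5 (43.5 CPM, 2.79 to 247, and 68.4 CPM, 6.15 to 647). Fibroblast markers were higher for 7 of 8 (9066 CPM, 4676 to 27214, and 11450 CPM, 5902 to 20159) and mesothelium markers for 5 of 6 (667 CPM, 24.7 to 1750, and 928 CPM, 131 to 3313). Endothelial markers were lower for 3 of 7 (1582 CPM, 878 to 3209, and 1554 CPM, 914 to 2370). Of the hepatocyte markers 3 were tested and none passed, with a median change of -0.01 and HNF4A at 0 counts in most libraries. All 3 erythroid markers tested were higher (799 CPM, 103 to 7167, and 1594 CPM, 129 to 31522), and of 5 T and NK cell and 4 smooth muscle markers tested none passed. The part of these cells in the members' changes was not tested. By limma-voom in batch 2 alone, 8 complement and 7 coagulation members were higher, and in batch 1, with 16 animals, no member was called.

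Other genes of both pathways, from a list of 36 complement and 32 coagulation genes, gave a wider frame. In liver 15 of 23 tested complement genes rose and 4 fell, and 10 of 26 coagulation genes rose and 6 fell, where 22.3% of all genes rose and 27.1% fell. The largest rises were C1QC (1.43 ± 0.10) and C1QB (1.38 ± 0.10), chains of C1q, and FCN1, a lectin of monocytes (1.41 ± 0.16). The largest falls were HRG, a plasma glycoprotein that binds heparin and plasminogen (-0.32 ± 0.06), CPN1, the carboxypeptidase that inactivates anaphylatoxins (-0.31 ± 0.06), and C1QBP, a mainly mitochondrial protein that can bind C1q (-0.29 ± 0.04).

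In muscle 7 of 17 other complement genes rose and 1 fell, and of 21 coagulation genes 2 rose and 3 fell, beside 7% and 7.52% of all genes. ITGAX (0.66 ± 0.09) and ITGAM (0.56 ± 0.13), subunits of the complement receptors of leukocytes, and C1QB (0.44 ± 0.14) rose. FCN3, a lectin that starts complement (-0.47 ± 0.09), SERPINA5, the inhibitor of protein C (-0.34 ± 0.12), and VWF, the endothelial carrier of factor VIII (-0.17 ± 0.05), fell. These were named among genes with a mean of at least 1 CPM. Below that mean, F8 (factor VIII, 0.998 CPM) had a larger fall, at -0.61 ± 0.09 with 66 of 95 animals lower (edgeR adjusted p = 2.71e-06). VSIG4 (0.791 CPM) rose by 0.54 ± 0.17, more than C1QB. In adipose tissue 13 of 20 complement genes rose and 1 fell, and 16 of 25 coagulation genes rose and 3 fell, beside 19.6% and 18.7% of all genes. FCN1 (0.74 ± 0.20), ITGAX (0.67 ± 0.11) and VSIG4, a C3b receptor of macrophages (0.62 ± 0.15), rose most. FCN3 (-0.42 ± 0.10), SERPINA5 (-0.39 ± 0.07) and ADAMTS13, the protease of VWF (-0.13 ± 0.04), fell.

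The third comparison asked whether the change itself differed between tissues of the same animals, by limma on the difference of within-animal changes. Between liver and adipose tissue (82 animals) 11 of 15 complement and 9 of 17 coagulation members differed, where 38.5% of 14102 genes did. Between liver and muscle (80 animals) 4 of 10 and 6 of 15 differed, where 33.5% of genes did. Between adipose tissue and muscle (91 animals) 2 of 10 and 1 of 13 differed, where 13% did. The 3 comparisons share animals and libraries in pairs.

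Among the members C7, THBD, PROC and PROS1 were called in opposite directions in liver and adipose tissue. C7 rose in liver and fell in adipose tissue, and the difference was 0.83 ± 0.11 (SE, limma adjusted p = 2.01e-09). THBD rose in liver and fell in adipose tissue and muscle, with differences of 0.54 ± 0.09 (limma adjusted p = 6.47e-07) and 0.67 ± 0.11 (limma adjusted p = 4.03e-07). PROS1 fell in liver and rose in adipose tissue, with a difference of -0.55 ± 0.07 (limma adjusted p = 3.71e-09). PROC did the same with a difference of -0.63 ± 0.15 (limma adjusted p = 0.000689), but with the 7 animals that stand apart left out, its adipose rise was no longer called.

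The changes of C5AR1, CFP and PLAU in liver were larger than those in both other tissues. For C5AR1 the liver change was larger by 0.82 ± 0.15 than in adipose tissue (limma adjusted p = 6.37e-06) and by 1.28 ± 0.17 than in muscle (limma adjusted p = 2.2e-09). For CFP these differences were 0.97 ± 0.15 and 0.86 ± 0.16, and for PLAU 0.94 ± 0.12 and 1.02 ± 0.13. C3AR1, too low to test in muscle, differed between liver and adipose tissue by 0.67 ± 0.16 (limma adjusted p = 0.000362). C1S, whose own change passed in neither liver nor muscle, differed between them by -0.40 ± 0.12 (limma adjusted p = 0.00608). Between adipose tissue and muscle, C7 differed by -0.76 ± 0.20 (limma adjusted p = 0.00504), F3 by 0.38 ± 0.12 (limma adjusted p = 0.0212) and C5AR1 by 0.55 ± 0.18 (limma adjusted p = 0.0285). Without the animals that stand apart C5AR1 was at 0.50 in that comparison and did not pass (limma adjusted p = 0.0579).

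**Figure D3:**
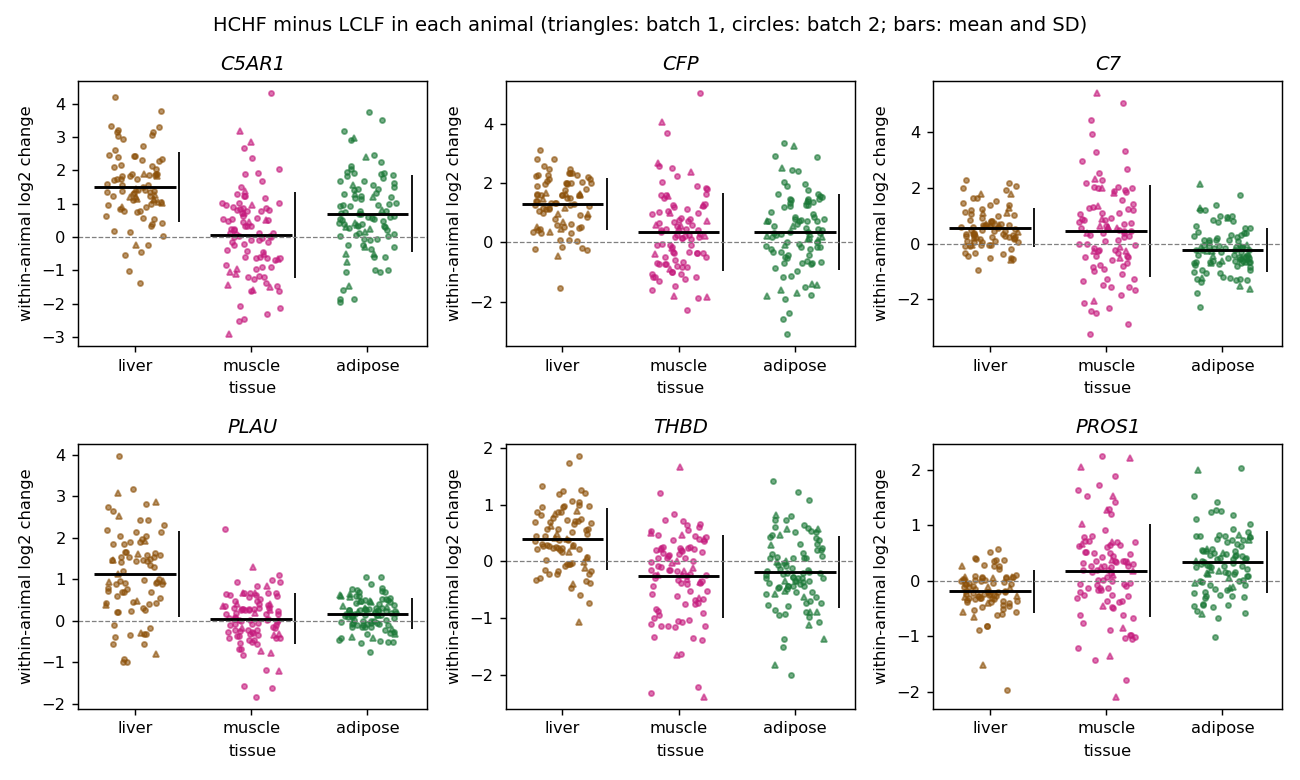
Within-animal change from LCLF to HCHF (log2 CPM) of C5AR1, CFP, C7, PLAU, THBD and PROS1 in liver (84 animals), muscle (95) and adipose tissue (95), 1 point per animal, with triangles for batch 1, circles for batch 2, a thick bar at the mean and a thin bar spanning 1 SD on either side. C7 and THBD lie mostly above 0 in liver and mostly below it in adipose tissue, PROS1 the reverse, and each cloud crosses 0.

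Within-animal changes varied widely around these means. The SD of the within-animal change of a member had a median of 0.45 for complement and 0.49 for coagulation in liver, 1.14 and 1.00 in muscle, and 0.90 and 0.76 in adipose tissue, on the log2 scale. The widest in muscle were FGB (SD 2.30, up to 11.13, at medians of 0.293 CPM on LCLF and 0.301 on HCHF) and C3 (1.78, up to 10.84). Their long upper ends lie in muscle libraries that held hepatocyte transcripts. In liver the steadiest members were MASP1, MASP2 and SERPINF2 (SD 0.23 each). The most variable was PLAT (1.34), at medians of 0.508 and 1.02 CPM. These SDs include counting error, and its part and that of hepatocyte transcripts were not tested. The fibrinogen chains had an SD of 0.67 (FGA), 0.64 (FGB) and 0.80 (FGG), and the mean change of -0.14 in FGG spans animals from -2.97 to 1.54. Among adipose members C4BPA varied most (SD 1.84, from -3.33 to 8.17) and TFPI least (0.32).

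The SD between animals was also compared between the diets, by a two-sided permutation test that swapped the diets within animals, adjusted over the members of a tissue. In adipose tissue 8 of the members tested had a narrower spread on HCHF, 6 of them complement genes. The SD ratio (HCHF over LCLF) was below 1 for 13 of 15 complement and 12 of 17 coagulation members tested (medians 0.80 and 0.95), and for 62.2% of all 16827 genes (median 0.96), so most genes lay on that side. The permutation test was run on the members alone. The smallest adjusted p among complement members were those of C3 (SD 0.75 on LCLF and 0.54 on HCHF, ratio 0.71, permutation adjusted p = 0.00944), CFP (1.10 and 0.78, ratio 0.71, p = 0.0126 in the same test) and C1S or C5AR1 (0.0193 each). SERPIND1, heparin cofactor II, had SDs of 1.51 and 0.97 (ratio 0.64, permutation adjusted p = 0.008) and PLAT of 0.75 and 0.56 (ratio 0.74, permutation adjusted p = 0.0134). C1R and C3AR1 complete the 8. Without the 7 animals that stand apart, C3 and SERPIND1 alone passed in that test. With the median absolute deviation in place of the SD, CFP, C3AR1, C5AR1 and SERPIND1 of these 8 passed. C3 (ratio 0.71, permutation adjusted p = 0.212), C1R, C1S and PLAT did not.

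In muscle 5 members had a wider spread on HCHF, MASP1 (ratio 1.48), SERPING1 (1.67), C1R (1.58), PROS1 (1.50) and F10 (1.36). The ratio was above 1 for 9 of 10 complement and 14 of 15 coagulation members tested, and for 60.9% of all genes, with medians of 1.43, 1.19 and 1.03. Without the 2 animals whose muscle held hepatocyte transcripts, MASP1, SERPING1 and PROS1 passed. With the median absolute deviation in place of the SD none of the 5 did (permutation adjusted p from 0.234 to 0.407). In liver, where the ratio was above 1 for 60.1% of all genes, F7 alone of the members passed with a wider spread (SD 0.37 and 0.49, ratio 1.32, permutation adjusted p = 0.0421), which did not pass without the 5 animals (ratio 1.26, permutation adjusted p = 0.254).

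Partner genes were compared by how their within-animal changes moved together, over 25 pairs and tissues, centred within batch and tested by permutation with 100000 resamples. In 22 of the 25 Pearson's r passed after adjustment. The share among other gene pairs was not computed, so this count does not set partner genes apart from other genes. The fibrinogen chains in liver moved nearly as one, with Pearson r of 0.94 for FGA with FGB, 0.94 for FGA with FGG and 0.96 for FGB with FGG (Spearman rho 0.93, 0.95 and 0.97). For each of these permutation p = 1e-05, the smallest it can give, for r and for rho, with adjusted p = 1.56e-05 and 1.92e-05. Without the 2 animals farthest out on the x axis r was 0.93, 0.93 and 0.96, and within batches it ran from 0.84 to 0.97.

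C1R and C1S, which lie side by side in the C1 complex, correlated in all 3 tissues, at r = 0.78 (liver), 0.90 (muscle) and 0.95 (adipose tissue) (rho 0.82, 0.86 and 0.93). C3AR1 with C5AR1 had r = 0.72 in liver and 0.94 in adipose tissue (rho 0.72 and 0.95). C8A with C8B had r = 0.84 in liver (rho 0.76) and C8A with C8G 0.48 (rho 0.41). Each of these but the last has permutation p = 1e-05 for r and for rho, and C8A with C8G has permutation p = 4e-05 for r (adjusted p = 5.88e-05) and 0.00016 for rho (adjusted p = 0.000267). Without the 2 animals farthest out, r was 0.76, 0.87 and 0.93 for C1R with C1S, 0.69 and 0.94 for the receptors, and 0.76 and 0.37 for C8. Within the larger batch their r was 0.83, 0.91 and 0.96 for C1R with C1S, 0.73 and 0.94 for the receptors, and 0.77 and 0.40 for C8.

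PROC and PROS1, protein C and its cofactor, moved against each other in liver and together in adipose tissue. Their r was -0.62 in liver (rho -0.48) and 0.49 in adipose tissue (rho 0.48), each with permutation p = 1e-05 for r, and with 2e-05 and 1e-05 for rho. Without the 2 animals farthest out r was -0.48 and 0.43, and it was -0.71 and -0.61 in the 2 batches of liver and 0.34 and 0.52 in those of adipose tissue. The difference between these correlations was not tested. Thrombin and its inhibitor, F2 with SERPINC1, had r = 0.81 in liver (rho 0.62, permutation adjusted p = 1.56e-05 and 1.92e-05) and 0.72 without the 2 animals farthest out. F10 with SERPINC1 had 0.54 there (rho 0.36, permutation adjusted p = 1.56e-05 and 0.00135) and 0.41 without those farthest out. In adipose tissue F2 with SERPINC1 had r = 0.24 (rho 0.15, permutation adjusted p = 0.0288 and 0.166) and did not pass in batch 2 alone (r = 0.07). F10 with SERPINC1 had r = 0.03 there (rho 0.01, permutation adjusted p = 0.791 and 0.946).

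The plasminogen activators PLAT and PLAU had r = 0.35 in liver (rho 0.38, permutation adjusted p = 0.00171 and 0.000859), 0.52 in muscle (rho 0.49, permutation adjusted p = 1.56e-05 and 1.92e-05) and -0.16 in adipose tissue (rho -0.19, permutation adjusted p = 0.124 and 0.0819). Without the 2 animals farthest out r was 0.33, 0.47 and -0.23. F3 and its inhibitor TFPI had r = 0.04 in liver (rho 0.18, permutation adjusted p = 0.735 and 0.117), with 0.86 in batch 1 (13 animals) and -0.06 in batch 2 (71 animals). In muscle, FGA with FGB had r = 0.91 and F2 with SERPINC1 0.75 (rho 0.80 and 0.35), and 0.86 and 0.48 without the 2 animals farthest out. These genes are low in muscle, with HCHF medians of 0.255 (FGA), 0.301 (FGB), 1.69 (F2) and 0.955 CPM (SERPINC1). Their highest HCHF values were 1224, 1023, 381 and 503 CPM. The part of hepatocyte transcripts in both correlations was not tested. F10 with SERPINC1 had r = 0.30 in muscle (rho 0.18, permutation adjusted p = 0.00476 and 0.0929). It rests on a few animals, with 0.16 without those farthest out and 0.11 without the 2 animals whose muscle held hepatocyte transcripts. F3 with TFPI had r = 0.30 in muscle (rho 0.34) and 0.25 in adipose tissue (rho 0.20), with permutation adjusted p = 0.00664 and 0.0172 for r and 0.00176 and 0.0598 for rho, so that in adipose tissue rho did not pass. In batch 2 alone r was 0.22 in each, and neither passed.

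**Figure D4:**
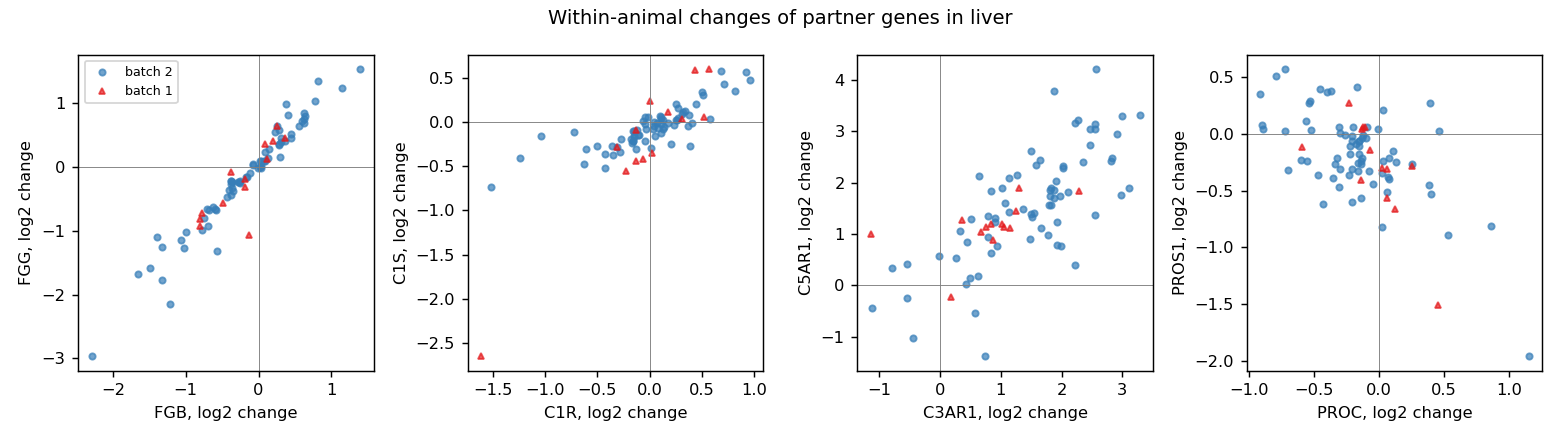
Within-animal changes in liver (log2 CPM, HCHF minus LCLF) of FGB against FGG, C1R against C1S, C3AR1 against C5AR1 and PROC against PROS1, 1 point per animal for 84 animals, with triangles for batch 1 and circles for batch 2. The first 3 pairs rise together (r = 0.96, 0.78 and 0.72 after centring within batch), and PROS1 falls where PROC rises (r = -0.62).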

How the data were processed

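Liver, muscle and adipose biopsies of 99 baboons were sequenced in 588 libraries, of which the authors kept 570. The authors deposited raw read counts per gene, which are the unit used here. STAR 2.7.7a, FastQC and featureCounts are named in the submitters' processing notes, while for the genome build, annotation and strand setting nothing is stated in the labels or headers used here. Groups came from the labels (tissue, animal, diet). Per the labels' protocols, 16 animals were sequenced single-end with an unstranded kit and 83 paired-end with a stranded one. The labels do not say which, and batches were read from the widest gap on the first axis of variation (21.9% of variance, gap 38.3 against 1.7 for the next). Median depth was 10.9 and 20.1 M counts.

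Members and lists were chosen with earlier results of these data known. All 43 members with a row matched a RefSeq symbol (Panubis1.0, used for names and overlaps). Changes were tested with edgeR 4.0.16 (R 4.3.3) on the counts: TMM scaling, filterByExpr (minimum count 10), the animal as block, 1 common dispersion estimated on 500 genes, quasi-likelihood test, Benjamini-Hochberg adjustment over all genes tested, threshold 0.05. Differences of change used limma 3.58.1 on log2 CPM (prior count 2). Spread and correlation used 100000 permutations (Python 3.11.15, NumPy 2.4.6, SciPy 1.17.1). Pairing by animal comes from the labels. Deviations of an animal's own 2 libraries had a median r of 0.50, 0.49 and 0.49 in liver, muscle and adipose tissue, against -0.01, 0.01 and -0.01 between animals.

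Libraries stood apart when markers of another tissue exceeded 1% of that tissue's own median share, or their own markers were under 25% of it, a rule set after seeing the data. Values were given in full for the 4 members per set and tissue with the largest change past the threshold (mean of at least 1 CPM) plus C3, C9, F3, FGB and THBD, for the members highest outside liver and the 3 per set with the largest liver excess, and for the 3 per set with the smallest adjusted p in differences and spread. Of other pathway genes with a mean of at least 1 CPM, the 3 largest rises and falls were named. Further members were named after their values were seen. On simulated counts for 1500 genes, the liver test recovered 70% of changes of 0.2 and 100% of changes of 0.5 on the log2 scale, with 2.3% of calls false. Muscle gave 71%, 100% and 6.04%, and adipose tissue 69%, 100% and 2.87%. The difference of change between liver and muscle gave 27%, 97% and 6.06%. The simulation used the same dispersion for all genes and held no libraries that stand apart. Alternatives were DESeq2 1.42.0 and limma-voom, other scalings and filters, each batch alone (by limma-voom, as with no filter), libraries that the authors left out, and leaving out animals that stand apart.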

Additional observations from a re-analysis of the deposited data

Results flagged for a closer look

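The change from LCLF to HCHF differed between tissues of the same animals, by limma on the difference of changes, for each of the following members. Liver exceeded muscle for C5AR1 (1.28), PLAU (1.02), CFP (0.86) and THBD (0.67), and muscle exceeded liver for PROS1 (-0.42) and C1S (-0.40). Liver exceeded adipose tissue for CFP (0.97), PLAU (0.94), C7 (0.83), C5AR1 (0.82) and THBD (0.54), and adipose tissue exceeded liver for PROS1 (-0.55). Between adipose tissue and muscle, C7 (-0.76) was lower in adipose tissue and C5AR1 (0.55) and F3 (0.38) higher. In batch 2 alone C5AR1 did not pass between adipose tissue and muscle (0.53, limma adjusted p = 0.0521).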

How the results depend on the processing

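Without the replicate block the animal pairing is not used, and counts of genes moved. Fits with no filter and those of 1 batch used limma-voom for changes and tissue levels, so in them the tool differs too. In liver 2236 genes fell without the block, 2281 with DESeq2 (no block) and 9735 with no filter on low counts. Complement members that fell in liver were 2 without the block, 2 with DESeq2, 0 in batch 1 alone and 0 with the libraries the authors left out, and coagulation members that fell were 0 in batch 1 and 2 with the left-out libraries. Batch 1 alone (liver, 13 animals) gave 640 genes higher and 294 lower and 1 coagulation member higher. In muscle 476 genes rose and 127 fell without the block, 411 and 132 with DESeq2, and 13 and 3 in batch 1, and 665 fell in batch 2. Complement members higher in muscle were 7 without the block, 4 with limma-voom, 2 with DESeq2, 2 in batch 2, and 0 with a mean of at least 1 CPM, in batch 1, with the left-out libraries and without the animals that stand apart. Coagulation members higher in muscle were 9 without the block, 5 with limma-voom, 3 with DESeq2, 2 with no filter and 4 in batch 2. Lower ones were 0 without the block, with DESeq2 and in batch 1. C5 and F2 in muscle changed direction without the block, to 1.17 and 1.68. In adipose tissue 1994 genes rose and 1676 fell without the block, 1995 and 1857 with DESeq2, 0 and 1 in batch 1, and 7616 fell with no filter. Complement members there were 0 higher and 0 lower in batch 1, and 1 was lower without the block and with DESeq2. Coagulation members were 0 higher and 0 lower in batch 1 and 2 lower in batch 2. In batch 1, CFP (-0.03) and MASP2 (0.10) changed direction in adipose tissue. Complement members whose change differed between adipose tissue and muscle were 1 in batch 2 and 1 without the animals that stand apart. With total counts CFP was -0.87 for liver minus adipose tissue, 0 complement members were lower in adipose tissue than in muscle, and C5 (0.68), C8B (0.21), F11 (1.00), F13B (0.82) and SERPINC1 (0.65) changed direction there, as did C9 without the block (-0.54). Members with a wider spread in liver were 0 with the median absolute deviation, with total counts and without the animals that stand apart. In muscle they were 0 with the median absolute deviation, 2 in batch 2 and 3 without those animals, and narrower ones in adipose tissue were 5, 5 and 2. The cause of these shifts was not tested, though batch 1 has fewer animals. Members at a few counts in muscle are limited by depth.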
